A study of Mus musculus with 12 samples.

Results

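A set of 30 genes that encode the contractile, calcium-handling and energy-supply proteins of skeletal muscle was followed through a set of optic nerve libraries. They were taken by their symbols from the deposited table of raw counts, where all 30 were found among 35275 genes, and all 30 passed the filter on low counts that left 18344 genes for testing. By role they fall into 9 contractile genes of fast fibres, 4 of slow fibres, the eye muscle myosin Myh13, 6 contractile genes used in both fibre types, 4 calcium-handling genes and 6 energy genes.

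Skeletal muscle contracts when calcium released from the sarcoplasmic reticulum lets myosin pull on actin within the sarcomere, and troponin is the calcium switch on the actin filament. Fast fibres use the myosin heavy chains Myh4, Myh1 and Myh2 with fast troponins, and slow fibres use Myh7 with slow troponins, so the ratio of the paired genes reflects fibre type. The optic nerve itself holds glia and axons and no muscle fibres, but the eye muscles arise around it in the orbit, and some of their fibres make Myh13.

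Poly(A) RNA of optic nerve from mice labelled NF1 (the gene of neurofibromatosis type 1) was sequenced in 12 libraries. NF1 mice given the vehicle PBS (phosphate-buffered saline) gave 6 libraries, NF1 mice given carboplatin, a platinum drug that damages DNA, gave 3, and NF1 mice given selumetinib, an inhibitor of the kinase MEK, gave 3. All groups are labelled NF1, the labels describe the material as nerve cells of optic nerve, and the alleles, strain, age, dose and length of treatment are not given in the sources used here. No group without NF1 was used. The labels do not say that replicates came from separate animals, so p-values measure only the spread between these libraries, which may be technical.

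The libraries held 21793052 to 33375754 counts, and levels are given as CPM (counts per 1000000 counts) scaled with TMM factors, which were 0.728 in PBS 1 and 0.877 to 1.15 elsewhere. Oligodendrocyte markers, 7 genes led by the myelin gene Mbp, summed to 18296 to 92771 CPM, so glial genes of the labelled tissue were abundant in every library. They were lowest in PBS 1 (27611 CPM), selumetinib 1 (26606) and selumetinib 2 (18296), against 48537 to 92771 CPM in the other libraries. In the count table PBS 1 to 3 stand beside the carboplatin libraries and PBS 4 to 6 beside the selumetinib libraries, but no label names a batch.

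The muscle genes were abundant in 1 control library, lower but above the rest in 5 libraries of the PBS and carboplatin groups, and lowest in PBS 4 to 6 and selumetinib, where Pygm led. Their summed level was 129005 CPM in PBS 1, where they took 9.39% of all counts (95% Wilson interval 9.38 to 9.40). It was 538 CPM in PBS 2, 737 in PBS 3, 117 in PBS 4, 101 in PBS 5 and 122 in PBS 6. It was 3933 CPM in carboplatin 1, 3532 in carboplatin 2 and 328 in carboplatin 3, and 120, 157 and 117 CPM in selumetinib 1 to 3.

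PBS 1 thus lay far above all other libraries, carboplatin 1 and 2 came next, and carboplatin 3 lay below PBS 2 and PBS 3. Mean ± SD was 21770 ± 52535 CPM in PBS (n = 6), 323 ± 296 in PBS 2 to 6 (n = 5), 2597 ± 1976 in carboplatin (n = 3) and 131 ± 22.3 in selumetinib (n = 3). No member was at 0 in PBS 1 to 3 or in carboplatin 1 to 3, whereas 6 to 8 members were at 0 in each of PBS 4 to 6 and 4 to 6 in each selumetinib library. With 3 counts as the floor, a member at 0 could have lain at up to 0.0996 to 0.128 CPM in these libraries. Intervals and floors cover counting error only. In bulk RNA, a change in the number of muscle fibres and a change in muscle RNA per fibre cannot be told apart.

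**Figure D1:**
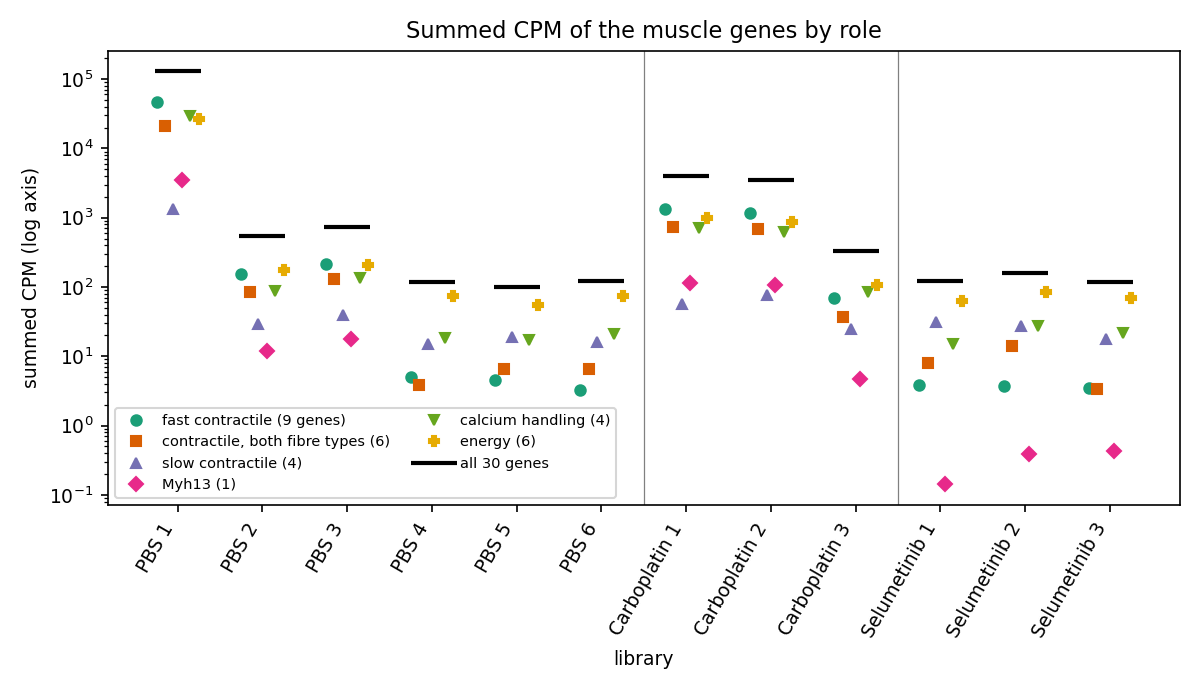
Summed CPM (log axis) of each role group and of all 30 genes in the 12 libraries; points are role groups, black bars the total, and a group at 0 CPM (Myh13 in PBS 4 to 6) has no point. The total is 129005 CPM in PBS 1, 3933 and 3532 in carboplatin 1 and 2, and 101 to 157 in PBS 4 to 6 and selumetinib.

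Among the fast contractile genes, Myh4, the myosin of the fastest limb fibres, was at 11565 CPM in PBS 1, 14.6 in PBS 2 and 32.4 in PBS 3, and at 0 in PBS 4 to 6. It was at 241, 147 and 13.1 CPM in carboplatin 1 to 3, and at 0, 1.03 and 0 in selumetinib 1 to 3. Myl1, the fast essential light chain, was at 5334, 24.3, 28.8, 0.0796, 0 and 0 CPM in PBS 1 to 6, at 179, 181 and 5.71 in carboplatin 1 to 3, and at 0 in every selumetinib library. Both genes thus marked the same 6 libraries, and carboplatin 3 was the lowest of these for both. Tnnt3, the fast troponin T that anchors troponin on the filament, was at 7146, 28.9, 38.0, 0.956, 1.28 and 0.664 CPM in PBS 1 to 6 and at 276, 244 and 14.1 in carboplatin. Actn3, the fast-fibre actinin of the Z-disc, was at 1245 CPM in PBS 1 but only 1.55 and 2.46 in PBS 2 and 3 and 15.1, 10.4 and 3.14 in carboplatin. Relative to PBS 1 it was the lowest member in PBS 2 and 3 and carboplatin 1 and 2, but in carboplatin 3, at 0.252% of its PBS 1 level, it lay above the member median of 0.190%. The other fast genes (Myh1, Myh2, Tnni2, Tnnc2 and the regulatory light chain Mylpf) were at 1569 to 6148 CPM in PBS 1.

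The slow contractile genes were lower and less uniform. Myh7, the slow and cardiac myosin, was at 449 CPM in PBS 1, 3.56 in PBS 2, 2.46 in PBS 3 and 0.371 to 1.76 in PBS 4 to 6. It was at 15.3, 15.3 and 1.10 CPM in carboplatin 1 to 3, and at 23.3 and 18.9 in selumetinib 1 and 2 but 0.727 in selumetinib 3. Selumetinib 1 and 2 thus had more Myh7 than any library but PBS 1, while fast myosins there were at 0 to 1.03 CPM. Tnni1, the slow troponin I, was at 291, 17.5, 30.3, 10.6, 14.9 and 11.8 CPM in PBS 1 to 6, at 24.7, 31.7 and 16.6 in carboplatin, and at 3.96, 5.96 and 14.3 in selumetinib. It was the most evenly spread of the 4 slow genes. Tnnt1, the slow troponin T, was at 442 CPM in PBS 1 and at 1.42 to 24.3 elsewhere, and Tnnc1, the slow and cardiac troponin C, at 144 and at 0.299 to 4.57.

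Myh13, the heavy chain restricted in the body largely to eye and larynx muscle, was at 3519 CPM in PBS 1, 11.9 in PBS 2, 17.9 in PBS 3 and 0 in PBS 4 to 6. It was at 115, 106 and 4.74 CPM in carboplatin 1 to 3 and at 0.142, 0.391 and 0.428 in selumetinib 1 to 3. The eye muscle gene was therefore found in the same libraries as the fast limb myosins.

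Of the contractile genes shared by both fibre types, Acta1, the skeletal alpha-actin of the thin filament, was at 10519, 39.1, 56.6, 0.159, 0.495 and 0.399 CPM in PBS 1 to 6. It was at 353, 332 and 16.8 CPM in carboplatin and at 3.11, 3.41 and 0.0855 in selumetinib. Actc1, the cardiac alpha-actin, was at 2372, 6.58 and 17.3 CPM in PBS 1 to 3, at 0 in PBS 4 to 6, at 101, 78.0 and 2.90 in carboplatin and at 0 in all selumetinib libraries. Actc1 and Acta1 kept the same order of libraries apart from the lowest ones. The giant ruler proteins Ttn and Neb were at 2496 and 1544 CPM in PBS 1, the Z-disc gene Tcap at 3133, and the Z-disc gene Actn2 at 1187. Actn2 was also at 2.94 and 8.06 CPM in selumetinib 1 and 2, against 1.04 to 1.77 in PBS 4 to 6.

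Atp2a1, the calcium pump that refills the sarcoplasmic reticulum of fast fibres, had the highest CPM of all members in PBS 1, PBS 3 and carboplatin 1 and 2. It was at 22144, 58.4, 94.5, 1.87, 1.40 and 1.99 CPM in PBS 1 to 6, at 553, 480 and 43.9 in carboplatin and at 1.20, 0.568 and 3.16 in selumetinib. Ryr1, the calcium release channel, was at 2365 CPM in PBS 1, 5.15 and 6.46 in PBS 2 and 3, and 30.02, 34.3 and 3.17 in carboplatin. As with Myh7, Ryr1 was higher in selumetinib 1 and 2, at 7.36 and 7.99 CPM, than in selumetinib 3, at 1.75. Casq1, which stores calcium in the reticulum, was at 1395 CPM in PBS 1, 8.29 to 12.9 in PBS 2 to 6, 48.9, 54.7 and 28.4 in carboplatin, and 3.11, 2.91 and 9.54 in selumetinib. Pvalb, a calcium buffer of fast fibres that some neurons also make, was at 3456 CPM in PBS 1, 6.64 to 21.5 in PBS 2 to 6, 72.3, 55.3 and 9.72 in carboplatin and 3.25, 15.4 and 7.53 in selumetinib. These last 2 genes never fell below 2.91 CPM.

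Among the energy genes, Ckm, the muscle creatine kinase that regenerates ATP, was at 9792, 25.4, 45.3, 0.239, 0.165 and 0 CPM in PBS 1 to 6. It was at 326, 276 and 14.5 CPM in carboplatin and at 0.0708, 0 and 0.0855 in selumetinib. Mb, the oxygen store myoglobin, was at 6170, 30.8 and 38.3 CPM in PBS 1 to 3, 0 to 0.247 in PBS 4 to 6, 221, 214 and 7.61 in carboplatin and 0.257 to 0.497 in selumetinib. Both genes separated PBS 1 to 3 and carboplatin from PBS 4 to 6 and selumetinib. Pygm, the glycogen phosphorylase of muscle, did not: it was at 2433 CPM in PBS 1, 47.4 to 72.3 in PBS 2 to 6, 120, 79.9 and 57.3 in carboplatin and 50.3 to 71.4 in selumetinib. The mitochondrial creatine kinase Ckmt2 was at 2667 CPM in PBS 1 and at 0 to 0.247 in PBS 4 to 6, and the muscle enolase Eno3 at 4024 and at 6.43 to 7.27. Cox6a2, the muscle form of a cytochrome oxidase subunit, was at 1102, 6.03 and 7.25 CPM in PBS 1 to 3, 0.371 to 1.04 in PBS 4 to 6, and 68.9, 55.0 and 9.52 in carboplatin.

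**Figure D2:**
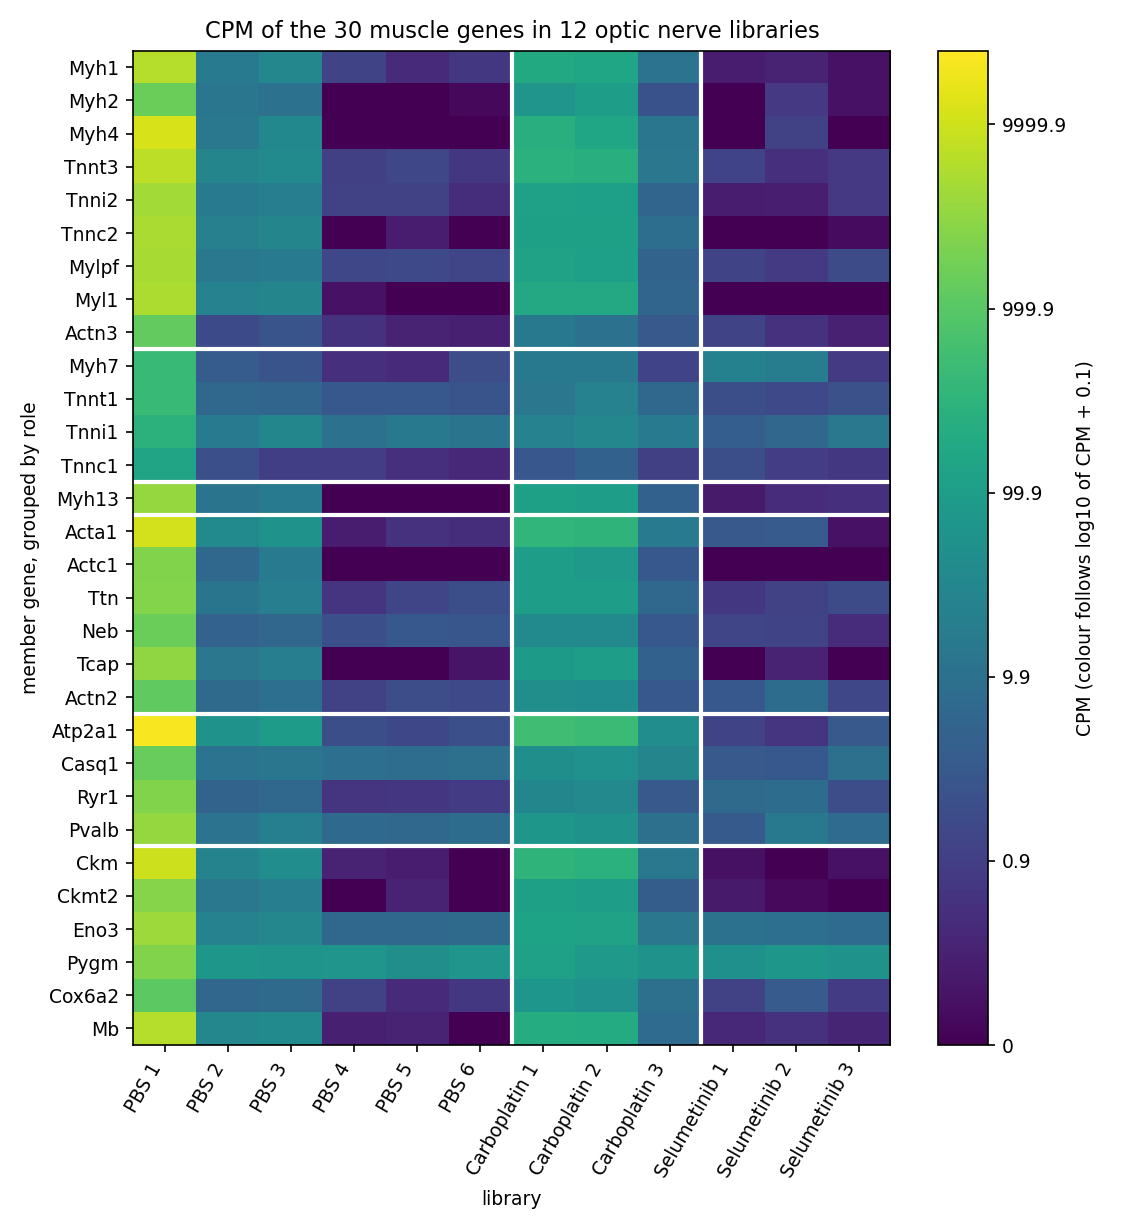
CPM of each of the 30 genes (rows, grouped by role) in each of the 12 libraries (columns); the colour follows log10 of CPM + 0.1. PBS 1 is bright for every gene, and Pygm, Tnni1, Casq1, Pvalb and Eno3 are at 2.91 CPM or more in all 12 libraries.

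Members differ in length, so levels between genes were compared as CPM per kilobase of annotated exon. On that scale Acta1 led in PBS 1 at 6848, followed by Atp2a1 at 6369, Tnnc2 at 6340 and Mylpf at 4602, and Ttn was lowest at 21.4. In PBS 4 to 6, where the summed level was lowest, Pygm led at 14.7 to 20.7 CPM per kb, while Acta1 was at 0.104 to 0.322. The order of the genes in these libraries therefore differed from that in PBS 1. As a share of their level in PBS 1, the means of PBS 4 to 6 were 4.28% for Tnni1, 2.47% for Pygm, 0.652% for Casq1 and 0.626% for Tnnt1, and 0 for Myh4, Myh13 and Actc1.

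The members moved together across PBS 1 to 3 and carboplatin 1 to 3. Taking each gene's CPM as a percentage of its CPM in PBS 1, the median over the 30 genes was 0.438% in PBS 2, 0.592% in PBS 3, 3.34% in carboplatin 1, 3.18% in carboplatin 2 and 0.190% in carboplatin 3. Of the 30 genes, 23, 24, 27, 25 and 24 lay within 2-fold of that median in those 5 libraries. In carboplatin 1 and 2 and in PBS 2 and 3 the lowest percentage was that of Actn3 (0.125% to 1.22%), and in all 5 the highest was that of Tnni1 (5.70% to 10.9%). In carboplatin 3, Pygm at 2.35%, Casq1 at 2.04%, Tnnt1 at 1.46%, Cox6a2 at 0.863% and Tnnc1 at 0.648% also stood more than 2-fold above the median of 0.190%.

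**Figure D3:**
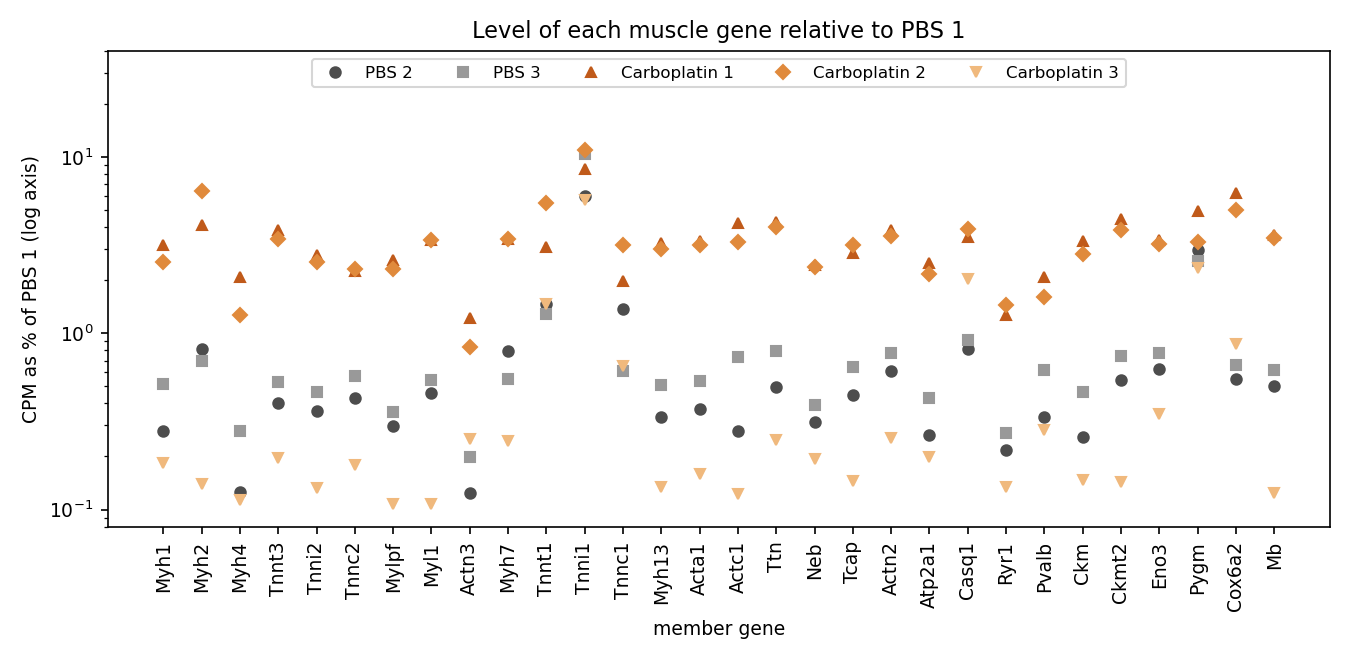
CPM of each member as a percentage of its CPM in PBS 1 (log axis) in PBS 2, PBS 3 and carboplatin 1 to 3; each point is 1 gene in 1 library. Most genes of a library lie in 1 band around its median (3.34% in carboplatin 1, 0.190% in carboplatin 3). Tnni1 lies above the band in each library, and Pygm in PBS 2, PBS 3 and carboplatin 3. In carboplatin 1 and 2 Pygm lies within the band, at 4.94% and 3.28%. Actn3 lies below the band in PBS 2 and 3 and carboplatin 1 and 2.

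The promoters of the members were searched for short motifs of muscle transcription factors, in the 250 bases before a gene start in RefSeq. For some genes, such as Myh13, Ckm and Tnni1, that start lies inside the gene as annotated in GENCODE M21. The Myh13 window begins at 67326853, and the annotated gene at 67321658 (plus strand). RefSeq windows (build GRCm38.p6) were matched for 24 of the 30 members by symbol, and 5 are printed here: the gene with the highest level per kb, the limb and eye myosins that were at 0 in PBS 4 to 6, and the fast and slow troponin C pair. Capitals mark matches, on either strand, to the E-box CANNTG (bound by the MyoD family), the M-CAT element CATTCCT, the TATA box TATAAA, the MEF2 site and the CArG box, and in Myh4 the MEF2 match overlaps a TATA match.
Acta1: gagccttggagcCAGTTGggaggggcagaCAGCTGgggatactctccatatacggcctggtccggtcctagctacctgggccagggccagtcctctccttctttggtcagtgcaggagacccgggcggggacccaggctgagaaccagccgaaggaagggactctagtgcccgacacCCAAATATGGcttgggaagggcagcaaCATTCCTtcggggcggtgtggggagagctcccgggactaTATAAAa
Myh4: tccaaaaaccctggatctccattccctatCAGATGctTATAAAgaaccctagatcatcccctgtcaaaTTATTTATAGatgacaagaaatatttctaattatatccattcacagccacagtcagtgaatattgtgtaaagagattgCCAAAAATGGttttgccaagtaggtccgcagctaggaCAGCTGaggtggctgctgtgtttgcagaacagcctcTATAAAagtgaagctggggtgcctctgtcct
Myh13: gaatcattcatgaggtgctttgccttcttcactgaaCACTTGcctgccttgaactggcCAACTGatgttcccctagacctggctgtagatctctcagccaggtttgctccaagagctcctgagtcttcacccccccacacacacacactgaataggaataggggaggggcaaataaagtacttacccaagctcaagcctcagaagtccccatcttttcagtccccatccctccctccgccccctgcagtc
Tnnc2: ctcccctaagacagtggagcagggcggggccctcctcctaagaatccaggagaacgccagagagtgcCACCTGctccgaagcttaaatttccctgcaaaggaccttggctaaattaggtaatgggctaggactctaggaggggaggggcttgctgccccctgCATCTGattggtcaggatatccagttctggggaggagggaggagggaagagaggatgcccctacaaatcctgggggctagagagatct
Tnnc1: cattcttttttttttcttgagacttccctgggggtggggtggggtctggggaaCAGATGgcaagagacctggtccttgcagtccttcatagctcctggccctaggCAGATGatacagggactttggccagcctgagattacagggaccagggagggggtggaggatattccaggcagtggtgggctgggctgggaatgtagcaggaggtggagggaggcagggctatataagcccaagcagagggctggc
They lie at chr8:123894776-123895025 (minus strand) for Acta1, chr11:67237562-67237811 (plus) for Myh4, chr11:67326853-67327102 (plus) for Myh13, chr2:164779735-164779984 (minus) for Tnnc2 and chr14:31208062-31208311 (plus) for Tnnc1. Each of the 5 windows holds 2 E-boxes; that of Acta1 also holds M-CAT, CArG and TATA matches, and that of Myh4 holds MEF2, CArG and 3 TATA matches. An E-box was found for 20 of the 24 members, in 82.8% of their 29 windows against 66.2% of all 32851 windows. A MEF2 site was found for 4 members (13.8% of windows against 2.92%), a CArG box for 3 (10.3% against 1.47%), TATAAA for 5 (17.2% against 12.4%) and CATTCCT for Acta1 alone (3.45% against 4.51%). Fast and slow troponin C did not differ in these matches. A match describes letters in these windows and says nothing of whether a factor was bound. Whether the matches bear on the levels in these libraries was not tested.

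Myosin heavy chain make-up was compared per kb over 7 sarcomeric genes, the 5 members and the developmental myosins Myh3 and Myh8, in the 6 libraries with over 1000 counts of them. Myh4 was the largest share in PBS 1 at 49.2% (95% Wilson interval 49.0 to 49.3), and it was 22.1% in PBS 2, 33.0% in PBS 3 and 37.9%, 27.3% and 40.1% in carboplatin 1 to 3. Myh1 made up 24.6% to 33.0% in these libraries. Myh13 was 14.6% in PBS 1 (14.5 to 14.7), 17.5% in PBS 2, 17.8% in PBS 3 and 17.6%, 19.1% and 14.2% in carboplatin. The eye muscle gene thus kept a near-equal share while the total myosin count ran from 1026 to 526295.

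Myh2, the myosin of fast oxidative fibres, also varied: it was 5.62% in PBS 1, 16.4% in PBS 2 (14.7 to 18.1), 9.37% in PBS 3 and 8.61%, 15.8% and 5.70% in carboplatin 1 to 3. Myh3, an embryonic myosin that eye muscle retains in adults, was 3.76% in PBS 1, 13.4% in PBS 2, 6.43% in PBS 3 and 4.00%, 6.40% and 3.97% in carboplatin. PBS 2 and carboplatin 2 therefore had the lowest Myh4 and the highest Myh2 shares, 1 library from each group. Myh7 stayed between 1.33% and 3.78%. In selumetinib 1 and 2, by contrast, Myh7 was 96.998% (95.4 to 98.1) of 677 counts and 80.8% (77.5 to 83.7) of 649 counts, and PBS 4 to 6 and selumetinib 3 held only 20 to 96 counts of all 7 genes. Near-identical stretches limit these shares: 25.4% of the 50-base words of Myh1, 22.9% of Myh2, 18.9% of Myh4, 15.6% of Myh7 (with the cardiac Myh6) and 8.26% of Myh13 also occur in another gene.

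**Figure D4:**
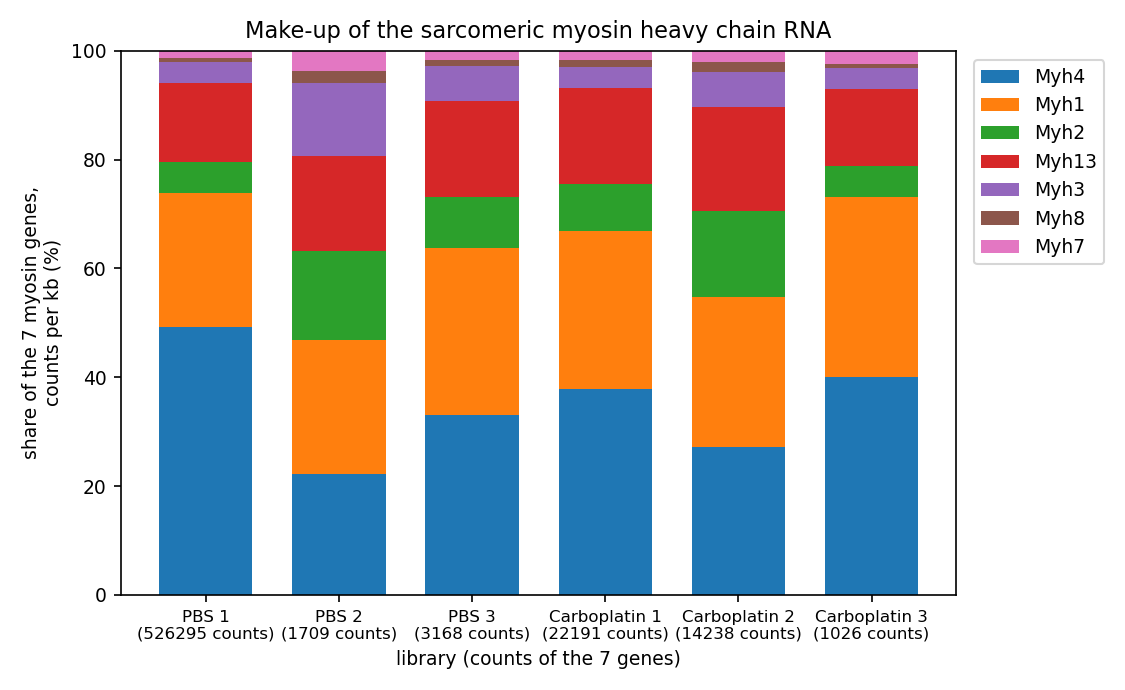
Share of each of 7 sarcomeric myosin heavy chain genes, as counts per kb in percent, in the 6 libraries with over 1000 counts of them; each bar is 1 library and its count is given below it. Myh4 runs from 22.1% in PBS 2 to 49.2% in PBS 1, and Myh13 from 14.2% to 19.1%.

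Slow isoforms were a small part of paired isoforms where muscle RNA was abundant. Over 4 families (myosin heavy chain and troponins T, I and C), the slow share per kb was 2.72% in PBS 1 (95% Wilson interval 2.69 to 2.75), 3.54% in carboplatin 1, 5.60% in carboplatin 2, 13.8% in PBS 2, 12.4% in PBS 3 and 23.2% in carboplatin 3. In PBS 4 to 6 it was 77.5% to 85.9% and in selumetinib 85.3% to 88.5%, of few counts. Among PBS 1 to 3 and carboplatin 1 to 3 the share was higher the lower the summed level of the members, an order that did not hold within PBS 4 to 6 and selumetinib. In the 5 libraries other than PBS 1 the troponin I pair had the highest share of the 4 families, at 54.3% in carboplatin 3, 38.3% in PBS 3 and 31.5% in PBS 2. Tnni1 was at 3.96 CPM or more in every library. The myosin pair stayed at 1.65% in PBS 1, 2.18%, 2.74% and 2.91% in carboplatin 1 to 3, 5.64% in PBS 2 and 2.34% in PBS 3. It was 21.3%, 42.4% and 65.2% in PBS 4 to 6 and 99.0%, 87.8% and 76.8% in selumetinib 1 to 3. Most slow counts were of Tnni1 in PBS 4 to 6 and selumetinib 3, and of Myh7 in selumetinib 1 and 2. On the per kb scale of the share, Myh7 was the highest slow gene in selumetinib 1 and 2 (2.70 and 2.20 CPM per kb). It stood beside Tnnc1 (1.77 and 0.819), Tnni1 (1.10 and 1.66) and Tnnt1 (0.835 and 0.644). In PBS 4 to 6 and selumetinib 3 Tnni1 was the highest slow gene, at 2.95 to 4.15 CPM per kb.

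No member was called in carboplatin against PBS when all 12 libraries were used. In edgeR's quasi-likelihood fit, 0 of 30 passed an adjusted p of 0.05 (Benjamini-Hochberg over 18344 genes), against 2.09% of all genes tested (383 genes). At an unadjusted p under 0.05, 0 members passed, against 16.5% of all genes. All 30 fold changes were negative, with a median log2 fold change of -2.90 (all genes: -0.11). Acta1, for example, was -2.92 ± 2.96 on the log2 scale (SE; adjusted p 0.662) and Casq1 -2.45 ± 1.88 (adjusted p 0.555). Limma voom with quality weights called 5 of 30 higher (Actn3, Casq1, Atp2a1, Cox6a2 and Tnnt1), with a median of 4.04. It called 29.8% of all genes in either direction and 17.1% higher, a share close to that of the members. DESeq2 gave no member an adjusted p.

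The direction rested on PBS 1. Without it all 30 fold changes were positive, with a median of 3.33, and 6 members were called higher by edgeR, against 10.7% of all genes called in either direction and 6.79% called higher. These were Casq1 (log2 2.08 ± 0.37, adjusted p 0.00755), Tnnt1 (1.84 ± 0.43), Neb (2.77 ± 0.66), Cox6a2 (3.84 ± 0.97), Actn3 (3.25 ± 0.83) and Eno3 (2.59 ± 0.71). The carboplatin libraries did not lie wholly above or below the 6 PBS libraries for any member (0 of 30, against 6.97% of genes wholly higher and 5.23% wholly lower). Acta1 overlapped because PBS 1, 2 and 3, at 10519, 39.1 and 56.6 CPM, lay above carboplatin 3 at 16.8.

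The choice of controls decided the result. Against PBS 4 to 6 alone, 25 of 30 members were called higher in carboplatin, against 12.3% of all genes called in either direction and 8.09% called higher, with a median of 6.33. Among them were Ckm (10.61 ± 1.44, adjusted p 0.00543), Atp2a1 (7.67 ± 1.08, adjusted p 0.00612) and Tnnc2 (10.52 ± 1.37, adjusted p 0.00467), and those not called were Pvalb, Tnnc1, Myh7, Tnni1 and Pygm. Against groups wholly at 0 the change is a lower bound: Myh4 was at least 3536-fold, Myh13 at least 1990-fold and Actc1 at least 1603-fold higher, with 3 counts over PBS 4 to 6 as the floor. Against PBS 1 to 3 alone, 0 were called, against 0.0387% of all genes, with all 30 negative and a median of -3.89 (3 at an unadjusted p under 0.05). For 0 members the carboplatin libraries lay wholly above (9.64% of genes) or wholly below (7.90%) PBS 1 to 3. The PBS libraries differed among themselves in the same way: 29 members, all but Pygm, were higher in each of PBS 1 to 3 than in each of PBS 4 to 6, against 12.3% of all genes. For 27 members each carboplatin library lay above each of PBS 4 to 6 (23.1% of genes).

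**Figure D5:**
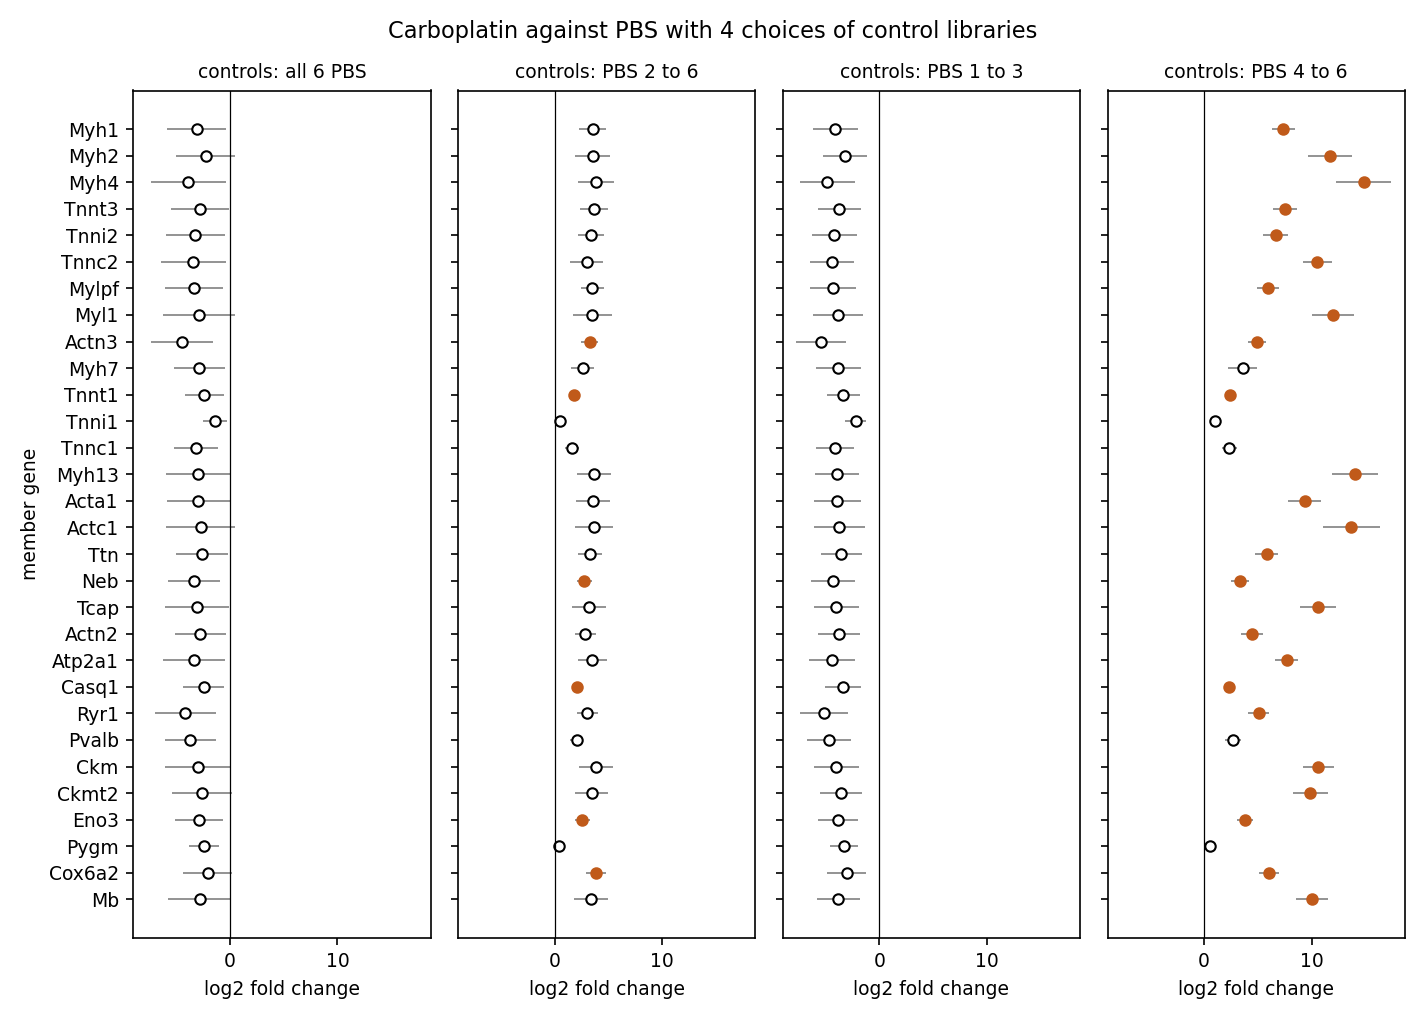
Log2 fold change (edgeR) of each member in carboplatin against PBS with all 6, PBS 2 to 6, PBS 1 to 3 or PBS 4 to 6 as controls; bars are 1 SE, filled points passed an adjusted p of 0.05, and Myh4, Myh13 and Actc1 have fitted values against controls at 0 in the last panel. All 30 points are negative with all 6 PBS or PBS 1 to 3 as controls and positive with PBS 2 to 6 or PBS 4 to 6.

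In selumetinib against PBS 0 members were called by edgeR, and 0 of all genes were (0%). At an unadjusted p under 0.05, 25 of 30 were lower, against 24.0% of all genes in either direction, and the median log2 fold change was -9.52 (all genes: -0.09). The 25 fell to 1 when any single selumetinib library was left out, to 15 without PBS 1 and to 13 with only the groups compared. Ckm was at -14.86 ± 5.35 (adjusted p 0.142) and Atp2a1 at -11.14 ± 4.22 (adjusted p 0.153). Myl1 and Actc1, at 0 in all selumetinib libraries, were at least 23889-fold and 10625-fold lower than the PBS mean, with 3 counts over the group as the floor. These bounds rest on PBS 1: against PBS 2 to 6, a comparison chosen after seeing the data, they were at least 283-fold and 127-fold, and in PBS 4 to 6 both genes were at 0 to 0.0796 CPM. Limma voom called Myh7 higher and Casq1 and Tnni1 lower (55.4% of all genes), and DESeq2 gave no member an adjusted p. Without PBS 1 the median was -2.91 with 0 called, and against PBS 4 to 6 it was 0.00514 with 15 of 30 positive and 0 called. Selumetinib libraries lay wholly below all 6 PBS libraries for Myh1, Tnnt1 and Neb (2.70% of genes) and wholly above for 0 members (3.23%). The groups thus overlapped for 27 of 30 members.

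In carboplatin against selumetinib edgeR called 0 members in the model with all 12 libraries, against 14.0% of all genes, although 29 of 30 fold changes were positive with a median of 6.40 (all genes: -0.01) and 4 passed an unadjusted p under 0.05 (31.5% of all genes). For 24 members every carboplatin library lay above every selumetinib library, against 20.9% of all genes, and for 0 every one lay below (20.8%). PBS 1 enters this comparison through the shared estimate of the spread. Without PBS 1, 25 members were called higher (33.0% of all genes called in either direction, 14.9% higher), with a median of 6.38. With only the 6 libraries compared 23 were called higher (16.6% in either direction, 7.83% higher), with a median of 6.39. Casq1 (3.07 ± 0.45, adjusted p 0.00214), Tnnt1 (3.03 ± 0.53, adjusted p 0.00413) and Neb (4.76 ± 0.89, adjusted p 0.00514) had the smallest p without PBS 1. Limma voom called 7 higher and 1 lower (58.8% of all genes). Myh7 was the 1 member with a negative value, -0.44 ± 2.36 (adjusted p 0.923). The 3 comparisons share libraries, so they are not independent of each other.

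Other muscle genes, listed with earlier results of these data known, were also highest in PBS 1 when summed by list, and the lists differed in the other libraries. The 19 other sarcomere genes summed to 12675 CPM in PBS 1, 69.4 in PBS 2, 85.5 in PBS 3, 33.5 to 38.1 in PBS 4 to 6, 308, 287 and 48.1 in carboplatin and 21.5 to 40.03 in selumetinib. Among their most abundant genes were the M-band gene Myom1 (1422 CPM in PBS 1) and Nrap (1201). With all 12 libraries 0 of the 19 were called in carboplatin against PBS. Against PBS 4 to 6, 13 of the 17 tested were called higher (16 had positive fold changes). The 13 further calcium and excitation genes, led by Srl, Cacna1s (the voltage sensor) and Hrc, summed to 6220 CPM in PBS 1, 79.5 and 89.5 in PBS 2 and 3, 181, 177 and 56.3 in carboplatin, 59.6 to 64.1 in PBS 4 to 6 and 68.3 to 95.2 in selumetinib. In PBS 4 to 6 and selumetinib that sum was largely Cacnb1 (18.8 to 20.2 and 24.4 to 61.7 CPM) and Jph1 (31.8 to 37.6 and 13.0 to 34.4). Srl, Cacna1s and Hrc were at 0 to 5.82 CPM there. Of the 13 genes 0 were called and, against PBS 4 to 6, 8 of the 11 tested were called higher (10 had positive fold changes). The 9 further energy genes, led by Pfkm, Pgam2 and Cox8b, summed to 5419 CPM in PBS 1, 308 and 233 in PBS 2 and 3, 470, 443 and 326 in carboplatin, 230.0 to 268 in PBS 4 to 6 and 395, 414 and 223 in selumetinib. Selumetinib 1 and 2 thus lay above PBS 2, PBS 3 and carboplatin 3 in this sum, most of which was Pfkm (307 and 324 CPM in selumetinib 1 and 2). Fabp3 and Phkg1 were also higher there than in those libraries, Pgam2, Cox8b and Ampd1 were lower, and Phka1, Cox7a1 and Cpt1b were mixed. Of the 9 energy genes 0 were called and, against PBS 4 to 6, 2 of the 7 tested were called higher (6 had positive fold changes). Over all genes 2.09% were called with all 12 libraries and 8.09% were called higher against PBS 4 to 6.

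The slow partners Casq2, Myl2 and Myl3 summed to 428 CPM in PBS 1 and to 2.90 to 14.9 elsewhere. Developmental and eye muscle genes reached 1365 CPM in PBS 1, of which Myh3 was 890 and Myh8 368. Myogenic genes summed to 146 CPM in PBS 1, led by Myf6, the regulator of mature fibres (82.7), and neuromuscular junction genes to 278, led by the receptor subunit Chrna1 (147). Heart genes were low in every library, at 58.0 CPM in PBS 1 and 9.17 to 20.2 elsewhere, although the slow genes Myh7 and Tnnc1 and the actin Actc1 are also heart genes. Selumetinib 1 and 2, which had more Myh7, had 11.3 and 12.2 CPM of these heart genes, of which Myh6 was 5.41 and 4.94. Single genes differed: Nppa was highest in these 2 libraries, at 0.849 and 1.17 CPM against 0.0466 to 0.599 elsewhere. Myl7 was at 0.566 and 0.675 CPM there, 1.68 in PBS 1 and 0 to 0.128 elsewhere. The other heart genes were not highest in selumetinib 1 or 2.

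Markers of other tissues moved with the members only in part. Adipocyte markers, 7 genes led by Fabp4, Cfd and Cidec, summed to 551 CPM in PBS 1, 1.72 in PBS 2, 6.03 in PBS 3, 0 to 0.199 in PBS 4 to 6, 12.1, 25.4 and 2.17 in carboplatin and 0.213 to 0.531 in selumetinib. Schwann cell markers were highest in PBS 1 at 679 CPM, but PBS 5 (136) and selumetinib 3 (91.8) came next, with few muscle counts. Photoreceptor markers summed to 833, 80.2 and 1574 CPM in carboplatin 1 to 3, 144 in PBS 2, 46.1 in PBS 3 and 11.4 to 27.7 in the other 7 libraries. They were thus highest in carboplatin 3, the carboplatin library with the least muscle RNA, and low in PBS 1. The summed levels of smooth muscle markers (28.0 to 160 CPM), tendon markers (76.8 to 527), astrocyte markers (3196 to 15084) and red blood cell markers (11.8 to 7792) were not highest in PBS 1. Single genes were: 5 of 6 smooth muscle genes, all but Tagln, and 3 of 5 tendon genes were highest in PBS 1, among them Acta2 (32.2 CPM, against 4.95 to 24.3 elsewhere) and Thbs4 (29.6, against 0.783 to 6.97). The part of any of these cells in the muscle results was not tested.

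Genes outside all lists were ranked by the Pearson correlation of their log2 CPM with the mean log2 CPM of the members over the 12 libraries, as a description among 12970 genes, with Gm, Rik, AC and AL gene models left out. Ube2c, a ubiquitin-conjugating enzyme of dividing cells, came first (r = 0.98), at 4722 CPM in PBS 1, 21.9 and 26.8 in PBS 2 and 3, 1.98 to 2.43 in PBS 4 to 6, 98.2, 96.4 and 8.25 in carboplatin and 0.639 to 1.03 in selumetinib. Next were Rpl7l1, Bri3, Ctbp1, Hscb, Park7, Hspb6, Polr2f, Polr2e and Avpi1, of which only Hspb6, a small heat shock protein of muscle, spanned a like range (1428 CPM in PBS 1 and 7.28 to 100.2 elsewhere). The level of Ube2c in PBS 1 was close to that of Tnnc2, at 5072 CPM. Exons of Ube2c on the plus strand overlap those of Tnnc2 on the minus strand over 592 bases of chromosome 2 between 164777190 and 164778227 (build GRCm38), which is 74.0% of Tnnc2 exon sequence.

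Whether counting used strand was not given in the sources used here, so reads of such pairs cannot be told apart, and 13 members have an exon overlap of this kind. Genes were chosen here for their overlap. Rabep2, an endosome gene that overlaps Atp2a1, was at 7065 CPM in PBS 1, 38.7 and 58.4 in PBS 2 and 3, 18.9 to 21.3 in PBS 4 to 6 and 218, 191 and 38.5 in carboplatin. A930016O22Rik, which overlaps Ckm, was at 5194 CPM in PBS 1, 14.3 and 24.5 in PBS 2 and 3, 0 to 0.159 in PBS 4 to 6 and 168, 137 and 7.21 in carboplatin. Both partners thus carried the pattern of the muscle gene opposite them. Myhas, an antisense RNA of the fast myosin cluster, was at 872 CPM in PBS 1 and 0 to 0.0796 in PBS 4 to 6, and Mhrt, opposite Myh7, was at 116 CPM in PBS 1, 9.16 and 7.31 in selumetinib 1 and 2 and 0 in selumetinib 3.

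Itgad, an integrin subunit of macrophages that overlaps Cox6a2 over 70 bases, did not follow the muscle genes. It was at 28.4, 20.5 and 20.7 CPM in carboplatin 1 to 3 and at 2.33, 1.21, 2.13, 1.47, 0.330 and 0.830 in PBS 1 to 6. Carboplatin 3 was therefore high for Itgad and, relative to the other members, for Cox6a2 (0.863% of its PBS 1 level against a median of 0.190%). Gm17224, which overlaps Casq1 over 156 bases, was at 10.1, 12.2 and 7.71 CPM in carboplatin and at 1.84 to 2.67 in PBS 2 to 6. Casq1 and Cox6a2, both called higher in carboplatin without PBS 1, are thus the members whose opposite partner was also higher in carboplatin 3 than in each of PBS 2 to 6, and the part of the partners in those counts was not tested.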

How the data were processed

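The authors deposited a table of raw counts per gene for 12 libraries, from poly(A)-selected RNA per the labels' protocols. FastQC, Trimmomatic, STAR, HTSeq, DESeq2 and the mm10 build are named per the submitters' processing notes, with no versions; whether counting used strand is not given in the sources used here. This table has 0 further sample columns, and 34490 of its 35275 gene IDs were found in GENCODE M21 (785 were not), which gave exon lengths and positions.

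Counts were tested with edgeR 4.0.16 in R 4.3.3: filterByExpr (minimum count 10, minimum total 15), TMM factors, and a robust quasi-likelihood fit of the 3 groups over 12 libraries (common dispersion 0.272), with Benjamini-Hochberg adjustment and calls at an adjusted p under 0.05. The SE was taken as the absolute log2 fold change divided by the root of its F statistic. Library totals of 21793052 to 33375754 counts put 3 counts at 0.0907 to 0.140 CPM. The fit was tested on simulated counts with a lower dispersion than these data and no outlying library. That test does not bear on results that hinge on PBS 1. Alternatives were DESeq2 1.42.0, limma 3.58.1 (voom with quality weights), other scaling and filters, other control libraries, a replicate block and leaving out each library. Members, lists and tests were chosen with earlier results of these data known. Of each other list, the 3 genes highest by mean CPM were named, except some that are not reported here, and the 10 genes most like the members.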

Additional observations from a re-analysis of the deposited data

Results flagged for a closer look

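In the PBS group 1 library stood apart from the other 5 for every member. The gap from PBS 1 to the next library, divided by the range of the 6 libraries, was 1 for the summed CPM of the 30 genes, against Dixon's critical value of 0.625. It was also 1, after rounding, for Myh4, Tnni2, Mylpf, Actn3, Neb, Atp2a1, Casq1, Ryr1, Pvalb and Ckm. It was 0.99 for Myh1, Myh2, Tnnt3, Tnnc2, Myl1, Myh7, Tnnt1, Tnnc1, Myh13, Acta1, Actc1, Ttn, Tcap, Actn2, Ckmt2, Eno3, Pygm, Cox6a2 and Mb, and 0.93 for Tnni1. PBS 1 was the highest library in each case. Chance passes this value in about 5% of groups for 1 gene, if values are normally spread and no library was picked beforehand. Here the members were chosen with earlier results of these data known, among them the muscle RNA in PBS 1. The outcome was therefore set in advance, and the gaps only describe these libraries. The members also share the same libraries, so these are not separate observations.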

How the results depend on the processing

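The direction of carboplatin against PBS turned with the controls. Limma voom called 5 members in carboplatin against PBS, 3 in selumetinib against PBS and 8 in carboplatin against selumetinib, against 0 in each with edgeR. With PBS 4 to 6 as controls edgeR called 25 in carboplatin against PBS, and with only the groups compared it called 23 in carboplatin against selumetinib. The log2 median of the members in carboplatin against PBS was 4.04 with voom and 6.33 with PBS 4 to 6. By gene, voom and PBS 4 to 6 gave 5.91 and 9.37 for Acta1, 3.10 and 5.93 for Mylpf, 1.48 and 2.42 for Tnnt1, 7.80 and 14.02 for Myh13, 4.93 and 7.67 for Atp2a1, and 7.36 and 10.61 for Ckm. In selumetinib against PBS they gave 1.502 and 2.65 for Acta1 and 1.30 and 6.13 for Myh13, and the median with PBS 4 to 6 was 0.00514; the cause was not tested. Leaving out 1 library at a time gave 0 to 6 calls in carboplatin against PBS, 0 to 0 in selumetinib against PBS and 0 to 25 in carboplatin against selumetinib. For carboplatin against PBS the median then ran from -3.28 to 3.33, Acta1 from -3.34 to 3.59, Atp2a1 from -3.83 to 3.50, Ckm from -3.50 to 3.85, Myh13 from -3.42 to 3.65, Mylpf from -3.79 to 3.49 and Tnnt1 from -2.91 to 1.84, the positive end always without PBS 1. RLE or upper-quartile factors, no filter and a filter at 1 CPM in 3 libraries left 0 calls in all 3 comparisons. Whether replicate numbers pair the libraries was not settled. Correlations of deviations at the same number were 0.222, 0.000116 and 0.296 for PBS and carboplatin. They were -0.142, 0.290 and 0.274 for PBS and selumetinib. In 4 of 6 pairs the best PBS number was the library's own, and only PBS 1 to 3 were compared. With a replicate block 0 members were called, with medians of -1.95, -7.77 and 5.82. PBS 4 to 6 each stand alone in their block, so the block medians against PBS rest on PBS 1 to 3. The slow share of paired isoforms moved in 47 of 72 alternatives (another length scale, or a family left out): it ran from 2.14% to 3.62% in PBS 1, 9.09% to 21.001% in PBS 2, 4.92% to 19.5% in PBS 3, 2.62% to 5.28%, 4.51% to 7.96% and 13.9% to 31.1% in carboplatin 1 to 3, and 63.0% to 97.4% in PBS 4 to 6 and selumetinib. At this depth a member at 0 may lie at up to 0.140 CPM.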
